A study of Mus musculus with 14 samples.

Results

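Fos, Fosb, Fosl1, Fosl2, Jun, Junb and Jund are the 7 genes of the Fos and Jun family. They were taken by gene symbol from the 24421 genes of the deposited count table, and all 7 were expressed highly enough to be tested. Hippocampal RNA of 14 naive male mice of the strain 129.C57Bl6 was sequenced after removal of ribosomal RNA, from 7 mice labelled LPAR2-/- and 7 WT mice, 1 library per mouse. LPAR2 is a receptor for lysophosphatidic acid. The LPAR2-/- allele removes part of exon 2 of the Lpar2 gene. Knockout and control mice came from 2 separate colonies, the knockouts bred as homozygotes and the controls descending from both C57BL/6 and 129/SvJ. An age of 10 to 12 weeks stands in the labels, the series text calls the same mice middle aged to aged, and the study names the dentate gyrus in one place and the hippocampus in another. Age and exact tissue are therefore uncertain, and a difference between the colonies other than the Lpar2 allele cannot be told apart from it.

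Proteins of the Fos family pair with proteins of the Jun family to form AP-1, a transcription factor that binds DNA through a basic leucine zipper. Jun proteins can also pair with each other, whereas Fos proteins need a Jun partner. In the hippocampus Fos, Fosb and Junb are immediate early genes, which are transcribed within minutes of synaptic activity and calcium entry, and their RNA is short-lived. Jun is activated by the stress kinases of the JNK type, and Jund is made at a steadier level than the others.

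The targeted gene went against its label. Lpar2, on chromosome 8 of mm10 from 69822565 to 69831102, had 8.20 to 12.3 CPM (reads on the gene scaled to all reads on genes of that library) in the mice labelled LPAR2-/- (median 9.47) and 1.51 to 3.23 CPM in WT mice (median 2.73). The difference came to 2.01 in log2 units (SE, standard error, 0.157, adjusted p = 8.22e-07 by the quasi-likelihood test of edgeR, adjusted over all genes as everywhere except where stated). Reads over the kept part of the gene cannot show whether the deleted part is missing, so the direction of every difference here rests on the labels. Each library held 15434620 to 23258949 reads on genes. Of 14897 genes tested, 1009 (6.77%) passed an adjusted p of 0.05, 515 of them (3.46%) with lower and 494 (3.32%) with higher levels in the mice labelled LPAR2-/-, and upper-quartile scaling moved this split to 377 lower and 616 higher. CPM of all mice labelled LPAR2-/- lay below those of all WT mice in 0.906% of genes, and above them in 0.866%. In bulk tissue, fewer cells of a type and less RNA per cell cannot be told apart.

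3 of the 7 members, Fos, Fosb and Fosl2, were lower in the mice labelled LPAR2-/-, against 3.46% of all genes tested. Fosl1, Jun, Junb and Jund did not pass the threshold. In Fos, Fosb and Fosl2 the values of the genotypes did not overlap, against 0.906% of all genes. The study itself named these 3 genes from the same libraries, so their direction is no independent evidence.

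The stretch of DNA before the transcription start is shown for the members that fell and, for comparison, for Jun and Junb, because CREB sites in this stretch are known to pass calcium signals on to Fos. The sequences are the last 150 bases before the start in the RefSeq promoters of build GRCm38.p6, 5′ to 3′ on the strand of the gene. Capitals mark TGACG (the core of the site bound by CREB, searched on both strands), TATAAA (searched on the strand of the gene) and TGACATCA (both strands), the AP-1-like element known from the Jun promoter.
Fos, chr12:85473740-85473889, plus strand: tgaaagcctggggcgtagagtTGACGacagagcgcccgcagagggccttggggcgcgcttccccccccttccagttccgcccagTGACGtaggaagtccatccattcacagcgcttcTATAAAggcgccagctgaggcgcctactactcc
Fosb, chr7:19310046-19310195, minus strand: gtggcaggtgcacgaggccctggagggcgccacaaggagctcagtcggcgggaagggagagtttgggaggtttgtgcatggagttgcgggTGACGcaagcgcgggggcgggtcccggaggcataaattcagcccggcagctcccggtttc
Fosl2, chr5:32136322-32136471, plus strand: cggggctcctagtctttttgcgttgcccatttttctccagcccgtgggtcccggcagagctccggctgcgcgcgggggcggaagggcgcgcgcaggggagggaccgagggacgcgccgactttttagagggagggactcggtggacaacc
Junb, chr8:84978749-84978898, minus strand: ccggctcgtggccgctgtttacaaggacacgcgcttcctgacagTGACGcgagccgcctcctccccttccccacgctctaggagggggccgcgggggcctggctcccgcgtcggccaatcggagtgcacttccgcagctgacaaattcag
Jun, chr4:95052223-95052372, minus strand: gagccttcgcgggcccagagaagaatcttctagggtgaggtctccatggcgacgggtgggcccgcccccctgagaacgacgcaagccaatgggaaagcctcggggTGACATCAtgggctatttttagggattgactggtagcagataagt
The Fos promoter held TGACG at bases -129 to -125 and -66 to -62 before the start, and TATAAA at -33 to -28. Fosb held TGACG at -60 to -56, and Junb at -106 to -102. Fosl2 had none of the motifs searched in this window, nor had Jund. TGACATCA lay at -45 to -38 in Jun. In the 32851 promoters of the RefSeq table, windows of 250 bases held TGACG in 17.8%, TATAAA in 7.59% and TGACATCA in 2.93% of cases. These shares were not matched for the percent of G and C bases, whose median over all promoters was 52.4%. It was 58.4% in Fos, 68.8% in Fosb, 64.4% in Fosl2, 61.2% in Jun, 66.4% in Junb and 47.6% in Jund. The full CREB site TGACGTCA (1.55% of promoters, and by its letters always also a TGACG match), the AP-1 site TGANTCA (6.75%) and the CArG box of the serum response factor (1.47%) were found in the 250 bases of no member with an entry, 6 of 7. Bases farther from the start were not searched, so this does not show that a gene lacks such sites. Fosl1 had no entry. A promoter with TGACG thus occurred both in genes that fell, Fos and Fosb, and in Junb, which did not pass the test.

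Fos, the founding member and the most used marker of recently active neurons, lies on chromosome 12 from 85473901 to 85477270 on the plus strand and was counted over 4 exons. Its level was lowest, median and highest at 1.95, 3.81 and 5.12 CPM in the mice labelled LPAR2-/-, and at 5.13, 16.1 and 22.6 CPM in WT mice. The genotypes did not overlap, but the gap between them was 5.12 against 5.13 CPM and was set by WT mouse 7. WT mice differed widely: mice 1, 3 and 7 had 8.70, 6.20 and 5.13 CPM, and the other 4 had 16.1 CPM or more. These levels rest on 34 to 110 reads per mouse in the mice labelled LPAR2-/- and on 88 to 451 in WT mice. The fitted difference was a fall by 1.86 in log2 units (SE 0.352, adjusted p = 0.00781), which corresponds to 27.5% of the WT level. With any single mouse left out, the adjusted p of Fos stayed between 0.00284 and 0.0186.

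Fosb encodes a Fos protein and, by alternative splicing, the truncated and long-lived ΔFosB, which counts per gene do not separate. The gene lies on chromosome 7 from 19302696 to 19310045 on the minus strand, with 4 counted exons. Its values ran from 4.16 over a median of 5.55 to 7.07 CPM in the mice labelled LPAR2-/- and from 8.57 over 16.8 to 23.0 CPM in WT mice. The highest mouse labelled LPAR2-/-, mouse 2, was below the lowest WT mouse, again mouse 7, and WT mouse 4 was the highest as for Fos. Fosb fell by 1.46 in log2 units (SE 0.199, adjusted p = 0.000700), to 36.4% of the WT level. This was the lowest adjusted p among the 7 members.

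Fosl2 encodes Fra-2, which lacks the strong activation domain of Fos, and lies on chromosome 5 from 32136472 to 32157839 on the plus strand, with 4 counted exons. It was measured with 876 to 2223 reads per mouse. The values were 47.5, 62.6 and 69.5 CPM (lowest, median, highest) in the mice labelled LPAR2-/- and 72.3, 91.7 and 108 CPM in WT mice. All 7 mice labelled LPAR2-/- were below all 7 WT mice, and WT mouse 7 was once more the lowest of its genotype. The fall was 0.60 in log2 units (SE 0.0970, adjusted p = 0.00255), to 66.1% of the WT level. It was smaller than that of Fos or Fosb, as tested below on the ratios within each mouse.

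Fosl1 encodes Fra-1, the other Fos protein without a strong activation domain, and lies on chromosome 19 from 5447698 to 5455938 on the plus strand, with 4 counted exons. It had 7.62, 8.26 and 8.79 CPM in the mice labelled LPAR2-/- and 6.38, 7.17 and 7.95 CPM in WT mice. Thus 5 of the 7 mice labelled LPAR2-/- were above every WT mouse, but the ranges overlapped. The difference of 0.22 in log2 units (SE 0.0667) had an adjusted p of 0.0603. It passed the threshold with upper-quartile scaling (adjusted p = 0.0423), with limma on the authors' normalized values (adjusted p = 0.0390) and without WT mouse 4 (adjusted p = 0.0472). Of the 1705 exon bases of Fosl1, 1155 (67.7%) also lie in exons of Ccdc85b on the other strand, so reads there are assigned only by their strand. Fosl1 had 15.1% to 18.9% as many reads as Ccdc85b in the mice labelled LPAR2-/- and 14.4% to 18.4% in WT mice, and this ratio did not differ beyond its spread (exact permutation p = 0.281). Ccdc85b itself had 43.3 to 58.0 CPM in the mice labelled LPAR2-/- and 41.7 to 49.0 CPM in WT mice (0.15 on the log2 scale, adjusted p = 0.126). From mouse to mouse, with the genotype means subtracted, log2 CPM of Fosl1 and Ccdc85b correlated at r = 0.25 over the 14 mice, which share libraries and depth. The part of Ccdc85b in the Fosl1 values was not tested.

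Jun, the founding member of its family, lies on chromosome 4 from 95049036 to 95052222 on the minus strand and has 1 exon. Its levels were 202, 239 and 290 CPM in the mice labelled LPAR2-/- and 190, 219 and 246 CPM in WT mice. The ranges overlapped, and 3 mice labelled LPAR2-/- were above all WT mice. The difference was 0.14 in log2 units (SE 0.0737, adjusted p = 0.268).

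Junb, an immediate early gene that is induced together with Fos, lies on chromosome 8 from 84976909 to 84978748 on the minus strand and has 1 exon. Mice labelled LPAR2-/- had 17.7, 21.6 and 28.2 CPM and WT mice 17.4, 25.1 and 31.2 CPM. WT mouse 7 was the lowest of all 14 mice and WT mouse 4 the highest. The difference was -0.17 in log2 units (SE 0.129, adjusted p = 0.477).

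Jund lies on chromosome 8 from 70697739 to 70700616 on the plus strand, with 2 counted exons. It had 47.0, 49.2 and 65.7 CPM in the mice labelled LPAR2-/- and 46.2, 50.4 and 58.8 CPM in WT mice. Mouse 4 labelled LPAR2-/- stood above all others at 65.7 CPM, and it was also the highest of its genotype for Junb and Fosl1. The difference was 0.015 in log2 units (SE 0.0722, adjusted p = 0.932) and changed sign to -0.053 without that mouse. Jund lies 0.867 Mb from Lpar2. Of the 155 genes tested within 10 Mb of Lpar2, 26.5% passed the threshold, against 6.77% of all genes tested. Junb lies 15.1 Mb away from Lpar2. Antisense genes are annotated across Jun (Junos) and Jund (Gm11175), and no counts for them were used here.

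**Figure D1:**
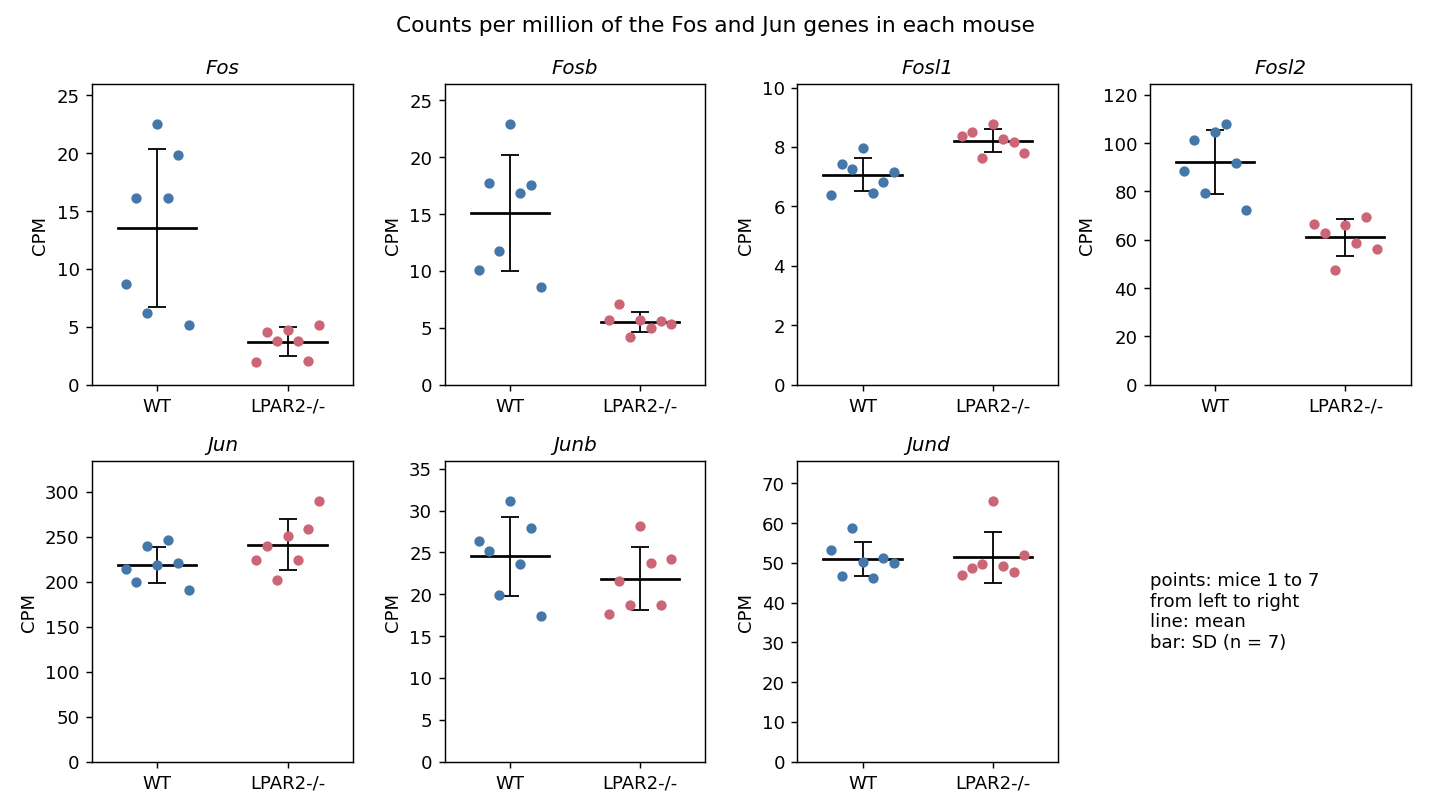
Library-scaled counts (CPM, axes from 0) of each family member in the 7 WT mice and the 7 mice labelled LPAR2-/-, with mouse 1 to 7 from left to right, the mean as a line and the SD as a bar. Fos, Fosb and Fosl2 of the mice labelled LPAR2-/- lie below all WT values, for Fos by 5.12 against 5.13 CPM, whereas the ranges of Fosl1, Jun, Junb and Jund overlap.

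**Figure D2:**
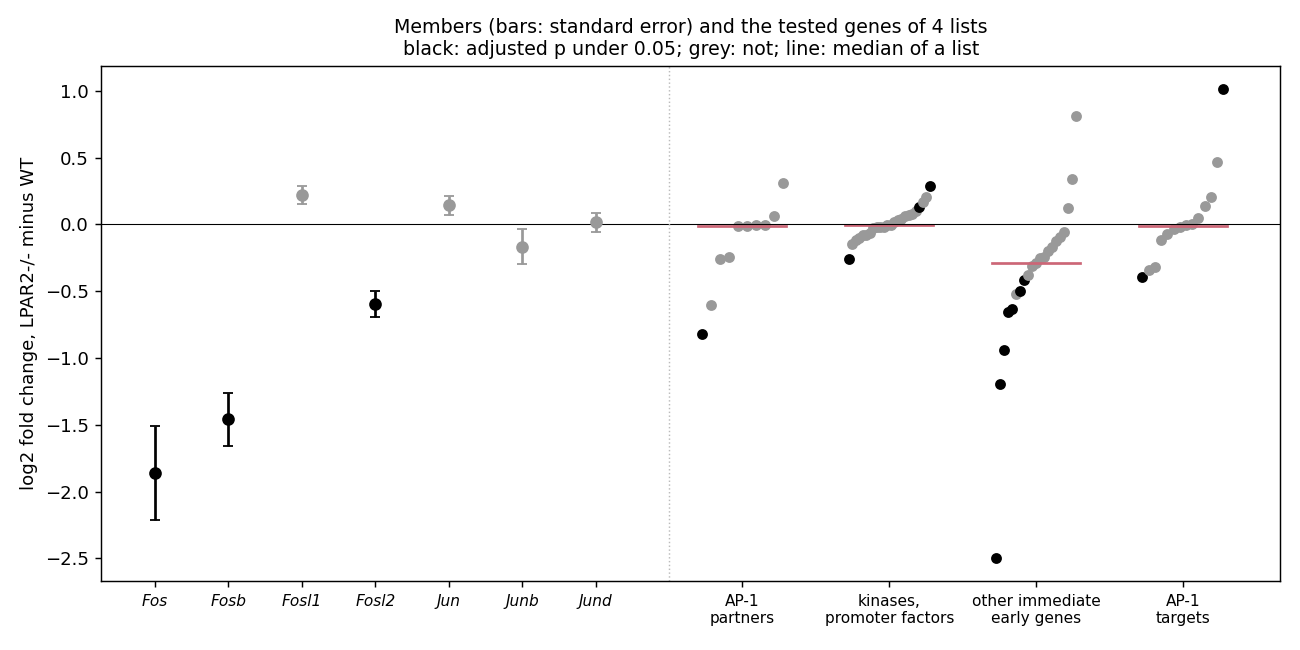
Log2 fold change, LPAR2-/- minus WT, of the 7 members (bars are standard errors of the edgeR fit) and of the tested genes of 4 lists, in black where the adjusted p is under 0.05. Fos, Fosb and Fosl2 lie at -1.86, -1.46 and -0.60, and the median of the other immediate early genes (line) lies at -0.29, that of AP-1 partners at -0.01.

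The members were next compared with each other by their level per length, as CPM per kilobase of counted exon. Jun was the most abundant member in every mouse, with a mean of 75.7 CPM per kb (SD 9.0) among the mice labelled LPAR2-/- and of 68.6 (SD 6.23) among WT mice, n = 7 each. Within each mouse it was 3.43 to 5.05 times as high as Jund, which was next by the mean of either genotype. In WT mice the order of the means went on with Jund (17.7 CPM per kb), Fosl2 (15.7), Junb (13.3), Fos (6.46), Fosl1 (4.14) and Fosb (3.99). The neighbours in this order after Jun had overlapping ranges, and Jund was above Fosl2 in 4 of 7 WT mice, though Fosl2 was above Junb, and Junb above Fos, in each of the 7 WT mice. In the mice labelled LPAR2-/- the order was Jund (17.9 CPM per kb), Junb (11.9), Fosl2 (10.4), Fosl1 (4.82), Fos (1.77) and Fosb (1.45). There, Junb and Fosl2 overlapped, as did Fos and Fosb, and the other neighbours were apart. Fosl1 was thus above Fos in all 7 mice labelled LPAR2-/-, by 1.87 to 5.27 times, whereas Fos was above Fosl1 in 5 of 7 WT mice.

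The summed level of the 7 members averaged 124 CPM per kb (SD 12.0) among the mice labelled LPAR2-/- and 130 (SD 11.7) among WT mice, n = 7 each, and the ranges of 106 to 140 and of 108 to 142 overlapped. The composition of this sum differed. The 4 Fos genes made up 14.9% of it (SD 1.12) among the mice labelled LPAR2-/- and 23.2% (SD 3.68) among WT mice, n = 7 each, and the highest share of the first, 16.3%, was below the lowest of the second, 18.3%. The share of Fos was 1.42% against 4.85%, that of Fosb 1.17% against 3.03% and that of Fosl2 8.43% against 12.1%, in the mice labelled LPAR2-/- and WT mice. Each of these 3 differences had the smallest p of an exact permutation test of 7 mice against 7, 0.000583 (0.00136 adjusted over 7 shares). Fosl1, the remaining Fos gene, went the other way, with 3.92% against 3.21% (exact permutation p = 0.00816, adjusted p = 0.0114). Jun took 61.0% ± 2.61 against 52.9% ± 3.45 of the sum (SD, n = 7 each), a share higher by 8.15 percentage points (exact permutation p = 0.00117, adjusted p = 0.00204). A share rises when others fall, and the level of Jun itself did not pass the test. Shares of Junb (9.57% and 10.2%) and Jund (14.5% and 13.7%) differed by less than 1 SD.

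**Figure D3:**
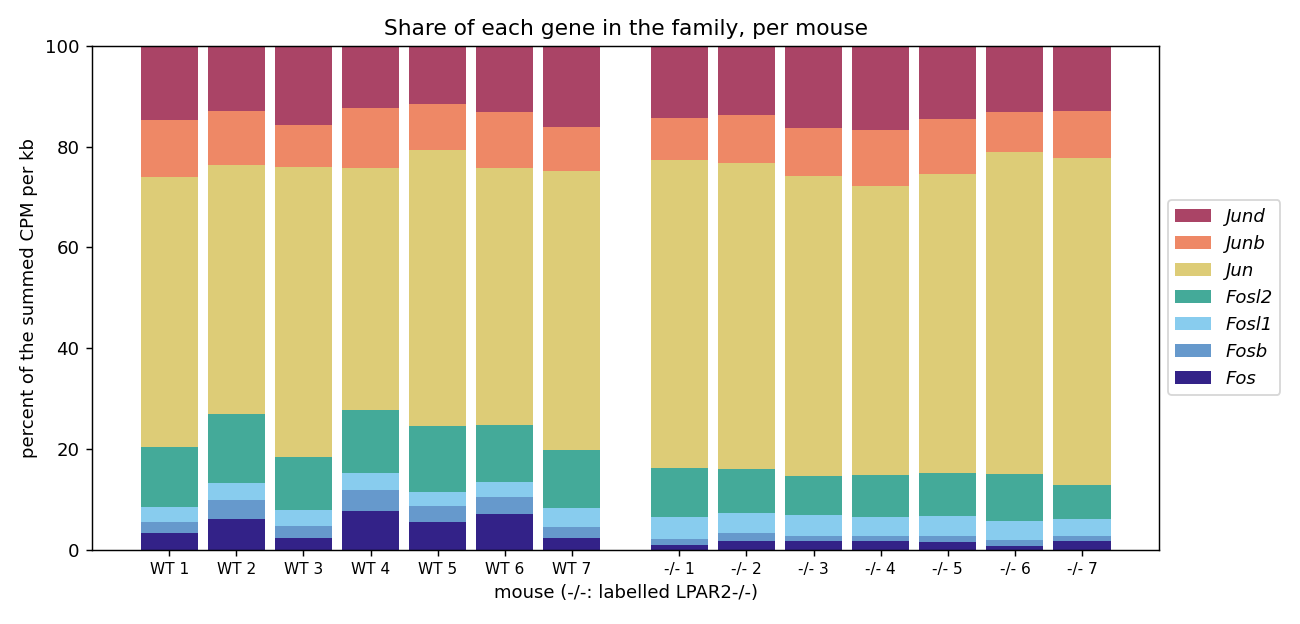
Percent of the summed CPM per kb taken by each of the 7 genes, as 1 stacked bar per mouse, with WT mice on the left and mice labelled LPAR2-/- (-/-) on the right. Fos genes at the bottom of the bars take 18.3% to 27.6% in WT mice and 12.8% to 16.3% in the mice labelled LPAR2-/-, and Jun is the widest band in every bar.

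A ratio of 2 members within a mouse does not depend on library size, so all 21 pairs were compared as log2 ratios with exact two-sided permutation tests, adjusted over the 21 pairs. Ratios differed between the genotypes in 16 pairs. These included every pair of Fos, Fosb or Fosl2 with Fosl1 or a Jun gene, so the count largely restates the falls given above. No share over other pairs of genes was computed. Of the 16 pairs, 11 had non-overlapping ratios and the smallest p the design allows (0.000583, adjusted 0.00111). The log2 ratio of Fos to Jun averaged -6.06 (SD 0.544) among the mice labelled LPAR2-/- and -4.19 (SD 0.821) among WT mice, n = 7 each, a difference of -1.87 that was at this smallest p. Relative to Junb, Fos differed by -1.57 and Fosb by -1.22, and relative to Jund they differed by -1.74 and -1.39.

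The 3 members that fell did not all fall alike. The Fos to Fosl2 ratio was lower by 1.14 on the log2 scale in the mice labelled LPAR2-/- (exact permutation p = 0.00816, adjusted p = 0.0132), and the Fosb to Fosl2 ratio by 0.79 (exact permutation p = 0.000583, adjusted p = 0.00111). For Fos to Fosb the difference was -0.35, within the spread of the mice (exact permutation p = 0.225, adjusted p = 0.249). The Fosl2 to Jun ratio differed by -0.73, Fosl2 to Jund by -0.60 and Fosl2 to Junb by -0.43 (exact permutation, adjusted p = 0.00111, 0.00510 and 0.0175).

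Among the Jun genes, no ratio passed the threshold with all 14 mice: Jun to Junb differed by 0.30 (exact permutation p = 0.0554, adjusted p = 0.0684), Jun to Jund by 0.13 and Junb to Jund by -0.17. Jun to Junb passed it in 3 of 14 fits that left out 1 mouse, without mouse 4 labelled LPAR2-/-, WT mouse 3 or WT mouse 7, with exact permutation adjusted p down to 0.0275. The ratios of Fosl1 to Junb (0.38, exact permutation, adjusted p = 0.0343) and of Fosl1 to Jund (0.21, adjusted p = 0.0367) passed it. Each lost the call in 8 of 14 fits that left out 1 mouse, with adjusted p up to 0.0669 and 0.0734. Fosl1 to Jun did not differ beyond its spread (0.08, exact permutation p = 0.434).

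**Figure D4:**
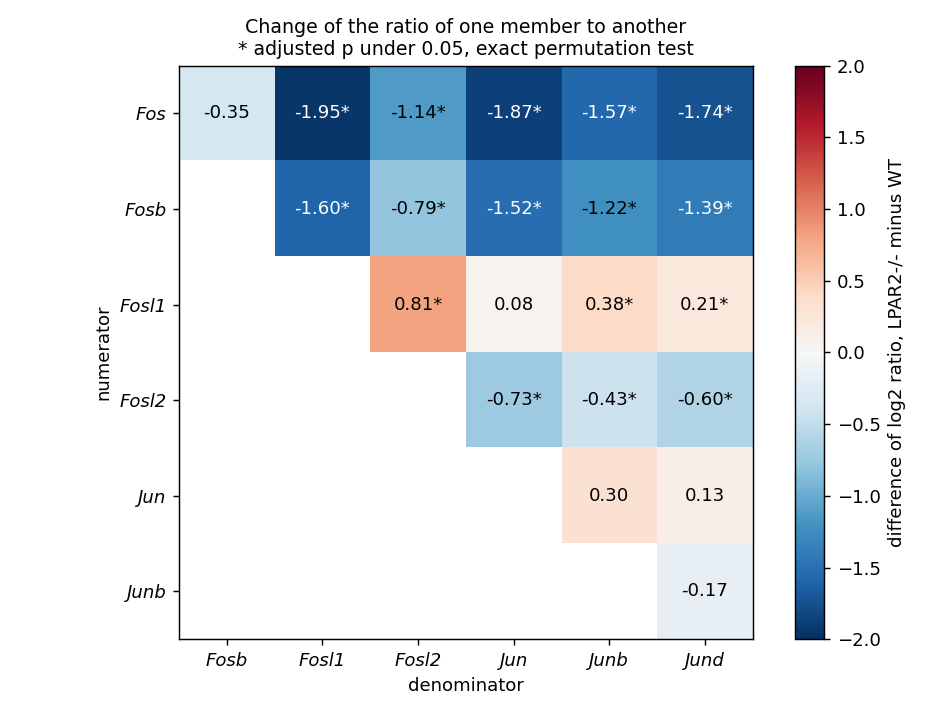
Difference of the log2 ratio of a member (rows, numerator) to another (columns, denominator), mean of the 7 mice labelled LPAR2-/- minus mean of the 7 WT mice, with an asterisk where the exact permutation test had an adjusted p under 0.05 over 21 pairs. Fos and Fosb are lower relative to every other member (-0.79 to -1.95) but not to each other (-0.35), and the 3 pairs of Jun genes carry no asterisk.

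Members differed in how much they varied between mice of 1 genotype. The SD of log2 CPM of Fos was 0.558 in the mice labelled LPAR2-/- and 0.842 in WT mice, larger than that of 95.7% and 99.3% of the genes tested. Fosb had 0.226 and 0.509, larger than 72.9% and 96.2% of genes. Junb had 0.243 and 0.288, and Fosl2 0.188 and 0.214. The median gene had 0.137 and 0.126. Jun (0.170 and 0.132) and Jund (0.166 and 0.117) were closer to it. Fosl1 had 0.0695 and 0.112, and 14.2% of genes had a smaller SD than Fosl1 in the mice labelled LPAR2-/-, 43.6% in WT mice. No member's spread differed between the genotypes (exact permutation tests of the deviations, lowest p = 0.112, for Fosb, adjusted p = 0.783). Few reads also raise the SD of log2 CPM, and the ranks among genes were not adjusted for read number. Fos had 34 to 110 reads per mouse in the mice labelled LPAR2-/- and 88 to 451 in WT mice.

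Within WT mice, Fos and Fosb rose and fell together from mouse to mouse. Over these 7 mice, Pearson's r of log2 CPM was 0.95 (exact permutation p = 0.00417, adjusted over 21 pairs 0.0722) and Spearman's rho 0.93 (p = 0.00675, adjusted p = 0.129). Without the 2 mice farthest from the median of Fos, r was 0.97. Fos with Fosl2 had r = 0.89 (rho 0.75) and Fos with Junb r = 0.87 (rho 0.89), with exact permutation p of 0.0103 and 0.00972, both 0.0722 after adjustment. Without the 2 farthest mice these r fell to 0.57 and 0.44. Leaving out those mice narrows the range of Fos, which can by itself lower r, so the fall does not show what the correlations rest on. Fosb with Fosl2 had r = 0.86 and Fosb with Junb r = 0.77 (exact permutation p = 0.0183 and 0.0448, adjusted p = 0.0958 and 0.175). Without the 2 farthest mice these were 0.80 and 0.95. None of the 42 correlations, 21 per genotype, passed the adjusted threshold, and 5 in WT mice and 3 in the mice labelled LPAR2-/- had an unadjusted exact permutation p under 0.05.

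In the mice labelled LPAR2-/-, Fos and Fosb had r = 0.04 (rho 0.11, exact permutation p = 0.906, adjusted p = 0.943), and r was 0.60 without the 2 mice farthest from the median of Fos. The low value thus changed with the mice included, and what it rests on was not tested. The counts of Fos there were few, 34 to 110 reads per mouse. The difference between the 2 genotypes in this correlation was not tested. Fos with Junb had r = 0.77 (rho 0.86, exact permutation p = 0.0442, adjusted p = 0.310, and r = 0.56 without the 2 farthest mice). Fosl1 with Fosl2 had r = 0.78 (rho 0.54, exact permutation p = 0.0377, adjusted p = 0.310, and r = 0.52 without the 2 farthest mice). Junb with Jund had r = 0.81 (rho 0.89, exact permutation p = 0.00893, adjusted p = 0.188; 0.57 without the 2 farthest mice), and mouse 4 was the highest for both genes. WT mouse 7 was the lowest of its genotype for Fos, Fosb, Fosl2, Jun and Junb.

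**Figure D5:**
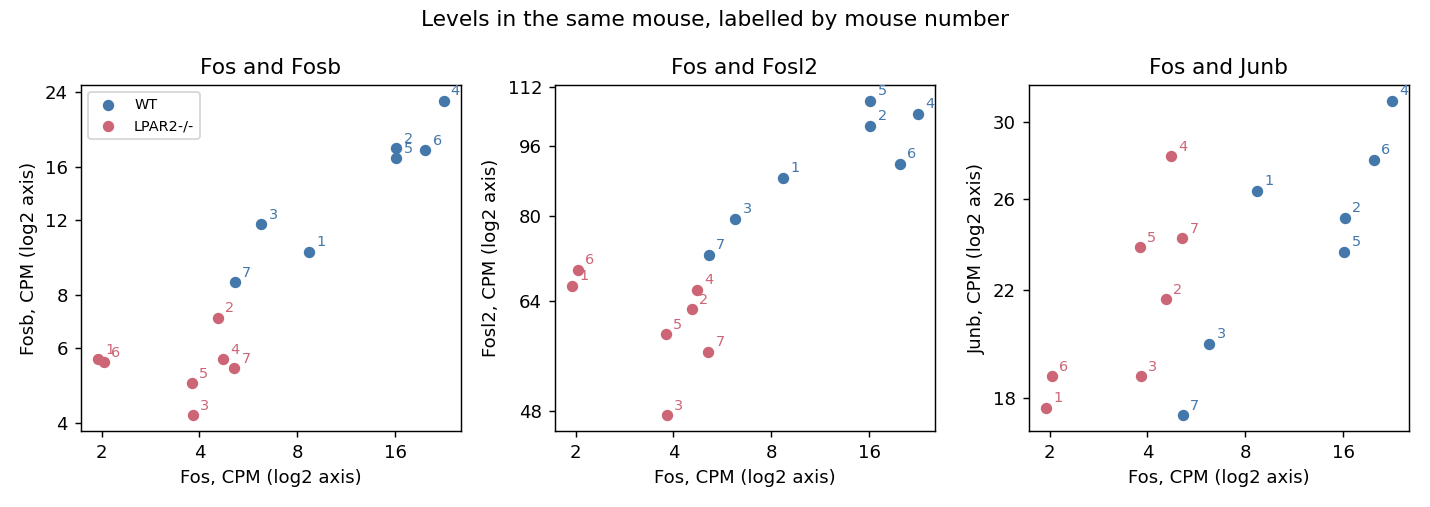
CPM of Fos (horizontal, log2 axis) against CPM of Fosb, Fosl2 and Junb (vertical, log2 axes) in the same mouse, with the mouse number beside each point. WT mice lie along a rising line for Fosb (r = 0.95 over 7 mice), and the mice labelled LPAR2-/- lie at low Fos (r = 0.04, or 0.60 without the 2 mice farthest from the median of Fos), a difference that was not tested.

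As a description over all 14 mice, the genes most like each member were found after the genotype means had been subtracted, by Pearson's r of log2 CPM among the 14082 genes with a mean of at least 1 CPM. The points share libraries and depth, and the highest of so many values are high by selection. The nearest to Fos were Gpt2 (r = 0.90), Zfp276 (0.87), the immediate early gene Egr4 (0.86), BC065397 (0.85) and the immediate early gene Egr2 (0.85). Gpt2 and Zfp276 lie on chromosome 8, 15.7 and 53.4 Mb from Lpar2, and Gpt2 itself fell by 0.32 on the log2 scale (adjusted p = 0.000495 by edgeR). For Junb they were Pfkfb4 (0.85), Cyr61 (0.84), Egr4 (0.84), Fos (0.83) and Trim30a (0.83). Egr4 was thus near both Fos and Junb, and Fos was itself among the 5 nearest to Junb.

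Fosb was nearest to Mxd4 (0.93), Fkbp4 (0.90), Zfp609 (0.89), Gm12942 (0.88) and Plekhm1 (0.88). Fosl2 was nearest to Gm10033 (0.94), a gene on chromosome 8 that lies 0.427 Mb from Lpar2 and itself fell by 0.85 on the log2 scale (adjusted p = 0.00299), and to 1810026B05Rik (0.83), Ccdc117 (0.81), 1600020E01Rik (0.81) and Kmt2d (0.81). Fosl1 was nearest to Ston1 (0.87), Ccdc13 (0.85), Ryr1 (0.84), Dnajb3 (0.83) and Adgre5 (0.82), the last on chromosome 8 at 13.9 Mb from Lpar2. Jun was nearest to Lhx2 (0.94), Srrm3 (0.92), Smn1 (0.92), Zc3h7b (0.91) and Tmem231 (0.90), the last on chromosome 8 at 42.1 Mb from Lpar2. Jund was nearest to Grcc10 (0.92), Mrpl52 (0.92), Slc9a3r1 (0.86), Pcsk1n (0.86) and Dlgap3 (0.85). Of these neighbours, Egr2, Egr4 and Cyr61 are in the list of other immediate early genes described below, and Fos is itself a member of the family.

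Of the genes of 12 other proteins that pair with Fos or Jun (AP-1 partners), 10 could be tested. Among these, 1 was lower past the threshold, against 3.46% of all genes, and 8 of the 10 had a value below 0, against 48.9% of all genes. The median of the list was -0.01 on the log2 scale, against 0.0029 for all genes. Atf3, a stress-induced partner of Jun, averaged 1.49 CPM (SD 0.490) among the mice labelled LPAR2-/- and 2.60 CPM (SD 0.868) among WT mice, n = 7 each, and fell by 0.82 in log2 units (SE 0.238, adjusted p = 0.0479). This call was lost in 10 of 14 fits without 1 mouse, with adjusted p up to 0.102 without WT mouse 4. Of the values that did not pass, the lowest and highest were those of Batf3 with -0.60 (adjusted p = 0.192) and Maf, a large Maf protein, with 0.31 (adjusted p = 0.0925). Atf2, the partner of Jun at the Jun promoter element shown above, had -0.0092 (adjusted p = 0.924). Batf and Batf2 had too few reads to be tested, with at most 8 and 7 per mouse.

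Of 24 kinases and promoter factors that act on these genes or their proteins, all were tested. In this list 1 gene was lower and 2 were higher (12.5% called, against 6.77% of all genes), and the median was -0.01. Mapk3, which encodes the kinase ERK1, averaged 295 CPM (SD 26.3) among the mice labelled LPAR2-/- and 241 CPM (SD 15.6) among WT mice, n = 7 each, and rose by 0.29 in log2 units (SE 0.0572, adjusted p = 0.00731). All mice labelled LPAR2-/- were above all WT mice for this gene, and the call held without any single mouse (adjusted p at most 0.0202). Map2k7, an activator of JNK, rose by 0.13 (SE 0.0375, adjusted p = 0.0493), but the call was lost in 13 of 14 fits without 1 mouse (adjusted p up to 0.110). Creb1, which encodes CREB, fell by 0.26 (SE 0.0664, adjusted p = 0.0291), and its call was lost in 8 of 14 such fits (adjusted p up to 0.0710). The study picked Creb1 from these libraries too. Srf, the factor of the CArG box, had 0.04 and Mapk8, which encodes JNK1, had -0.0073 on the log2 scale (adjusted p = 0.660 and 0.958). The highest and lowest values that did not pass were 0.20 for Mef2c and -0.14 for Rps6ka3 (adjusted p = 0.0785 and 0.0926).

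Of 21 other immediate early genes, 7 (33.3%) were lower among the mice labelled LPAR2-/-, against 3.46% of all genes, and the other 14 did not pass the test. The list's median was -0.29, and 18 of the 21 had a value below 0, against 48.9% of all genes. Arc, Egr2, Npas4, Nr4a1 and Nr4a2 are genes that the study picked from these libraries, so their direction is no independent evidence. Egr2 (-2.50), Npas4 (-1.19) and Arc (-0.94) had adjusted p of 0.00441, 0.00537 and 0.0155. Nr4a1 (-0.65, adjusted p = 0.0360) and Nr4a2 (-0.63, adjusted p = 0.00320) encode nuclear receptors, Klf10 (-0.42, adjusted p = 0.0203) a zinc finger factor, and Dusp1 (-0.50, adjusted p = 0.0492) a phosphatase that switches off MAP kinases. Calls of Nr4a1 and Dusp1 were lost in 10 and 9 of 14 fits without 1 mouse (adjusted p up to 0.0750 and 0.107). Egr1 had -0.52 and missed the threshold (adjusted p = 0.0586), and the highest value was 0.81 for Ctgf (adjusted p = 0.218).

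Of 21 genes described as targets of AP-1, 14 could be tested. Among these 1 was lower and 1 was higher (14.3% called, against 6.77% of all genes), 8 had a value below 0, and the median was -0.01. Plau, which encodes the protease urokinase, rose by 1.01 in log2 units (SE 0.206, adjusted p = 0.00865), from 1.59 ± 0.414 CPM in WT mice to 3.23 ± 0.868 CPM in the mice labelled LPAR2-/- (SD, n = 7 each). Ccnd1, which encodes cyclin D1, fell by 0.40 (SE 0.102, adjusted p = 0.0307), a call lost in 8 of 14 fits without 1 mouse (adjusted p up to 0.0710). The highest value that did not pass was that of Vim, which encodes vimentin, with 0.47 (adjusted p = 0.175). The opioid precursor genes Pdyn and Penk had 0.0028 and -0.069 (adjusted p = 0.995 and 0.801).

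Neuron markers overlapped between the mice labelled LPAR2-/- and WT mice (summed CPM of 6 genes, 5294 to 6729 and 5488 to 6840), as did the 5 dentate gyrus markers (512 to 755 and 509 to 733). The 5 blood markers summed to at most 3.14 CPM, and their 4 globin genes were at 0 in all mice. The 6 striatum markers summed to 67.1 to 77.8 CPM in the mice labelled LPAR2-/- and to 57.7 to 68.2 CPM in WT mice (log2 difference 0.21, exact permutation p = 0.00117). The 6 meninges markers summed to 204 to 1408 CPM (median 603) in the mice labelled LPAR2-/- and to 108 to 939 CPM (median 260) in WT mice. Their log2 difference was 1.01 (exact permutation p = 0.0833), and 1 of them was higher. Mouse 2 labelled LPAR2-/- stood apart by its choroid plexus markers (286 CPM) and mouse 3 by its oligodendrocyte markers (3759 CPM). Without both of these mice, Fos, Fosb and Fosl2 remained lower, by 1.94, 1.47 and 0.54 on the log2 scale (edgeR, adjusted p = 0.0236, 0.00274 and 0.00654). The part of the striatum and meninges markers in the results was not tested.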

How the data were processed

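Total RNA of the hippocampus of 7 mice labelled LPAR2-/- and 7 WT mice was depleted of ribosomal RNA and sequenced by the authors. Their steps were trimming (cutadapt 1.18), alignment to mm10 (STAR) and counting of exon reads per gene for the reverse strand (featureCounts 1.6.3), and the deposited counts were used here as they stand. A further deposited table holds other values, normalized reads per length after DESeq2 1.22.2 scaling by the authors. Of these, 99.7% lay within 1% of counts divided by size factor and kilobases, and they served as an alternative. The log2 columns of that table were damaged and were not used.

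Counts were filtered with filterByExpr, scaled by TMM and compared by quasi-likelihood F tests, fitted robustly, in edgeR 4.0.16 (R 4.3.3), without covariates, with Benjamini-Hochberg adjustment over all 14897 genes. The test was tried on simulated data with known answers, but the outcome is not given here and no result rests on it. Log2 CPM used a prior count of 2. Exact two-sided permutation tests ran over 3432 arrangements of the mice, or 5040 pairings for correlations, in Python 3.11.15. Alternatives were DESeq2 1.42.0, its size factors or upper-quartile scaling in edgeR, no filter, at least 10 counts in every library, limma 3.58.1 on the normalized values (pseudocount 0.01), a block for the mouse number, and leaving out each mouse. For ratios, shares and spread they were a prior count of 0.5, the normalized values and no division by length. A fit without the mice 2 and 3 labelled LPAR2-/- was chosen after seeing the data.

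Named genes were the 7 members, Lpar2, in each list the genes past the threshold (at most 10) and as many as 3 others to show the range, and the 5 genes most like each member. Atf2, Srf, Mapk8, Egr1, Pdyn and Penk were named in addition, after their values had been seen. The result of 1 gene that this rule would name is not reported here. The members and lists were chosen with earlier results of these data known. Marker lists covered neurons, dentate gyrus, CA1, CA3, striatum, meninges, choroid plexus, endothelium, astrocytes, microglia, oligodendrocytes and blood. Groups came from the labels, each library is 1 mouse, and p-values measure the spread between these mice. No 2 libraries of a genotype agreed within counting noise (42 pairs, chi-square per degree of freedom at least 3.35).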

Additional observations from a re-analysis of the deposited data

Results flagged for a closer look

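In the 14 sets of 7 values of the members and the 24 of the marker lists, 5 single mice stood apart from the other 6 of their genotype, by a gap to the nearest that was large against the range of the 7 by Dixon's criterion. Chance gives about 1 such set in 20. Among the members only Jund had one, at 65.7 CPM in mouse 4 labelled LPAR2-/-. The others were marker sums: 217 CPM of CA1 markers in WT mouse 2, 939 CPM of meninges markers in WT mouse 4, 286 CPM of choroid plexus markers in mouse 2 labelled LPAR2-/- and 3759 CPM of oligodendrocyte markers in mouse 3 labelled LPAR2-/-. WT mouse 4, with the high meninges sum, was also the WT mouse with the highest Fos, Fosb, Fosl1 and Junb. The part of these mice's tissue makeup in those values was not tested, and without WT mouse 4 the calls of Fos, Fosb and Fosl2 held.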

How the results depend on the processing

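Fos, Fosb and Fosl2 kept their direction and their call under every alternative run, and Jun and Junb stayed short of the threshold in all of them. Fosl1 passed with upper-quartile scaling (0.24) and with limma on the normalized values (0.22), and ranged from 0.19 to 0.25 with 1 mouse left out. Jund ranged from -0.053 to 0.052 with 1 mouse left out, being below 0 without mouse 4 labelled LPAR2-/-, WT mouse 2 (-0.00493) or WT mouse 5 (-0.00771). Over the whole table, lower genes numbered 292 to 725 and higher genes 275 to 660 with 1 mouse left out (fewest without WT mouse 2), and upper-quartile scaling moved the share of higher among called genes from 49.0% to 62.0%. Called AP-1 partners fell to 0 with upper-quartile scaling, without a filter and with limma, and numbered 0 to 1 with 1 mouse left out. The kinases and promoter factors numbered 1 to 4 and the AP-1 targets 1 to 3. The causes were not tested. Called pairs numbered 14 to 17 of 21 with 1 mouse left out.

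It is unclear whether mouse numbers pair the samples. Deviations of same-numbered mice correlated between -0.334 and 0.311, and 3 of 7 pairs were above 0.1. Of the 7 mice labelled LPAR2-/-, 3 correlated best with the WT mouse of their own number. With the number as a replicate block, 272 genes were lower and 314 higher, 0 AP-1 partners, 1 kinase or promoter factor and 4 other immediate early genes were called, and 12 pairs of members differed, with Fos to Fosl2 and Fosl2 to Junb (both adjusted p = 0.0938 by exact sign flips), Fosl1 to Junb and Fosl1 to Jund (both 0.103) no longer among them. Fos fell by 1.76 in that fit (adjusted p = 0.0331). Among the members, Fos rested on the fewest reads in the mice labelled LPAR2-/-, at 34 to 110 per mouse.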
